A study of Mus musculus with 9 samples.

Results

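Podocytes are the octopus-shaped epithelial cells that cover the outside of the glomerular capillaries. Their interlocking foot processes are joined by the slit diaphragm, the last layer of the kidney's filter, and injury to them in diabetes is linked with albuminuria. A set of 8 genes that mark this cell was followed here, chosen by name. Nphs1 encodes nephrin, the adhesion protein of the slit diaphragm, Magi2 a scaffold protein beneath it and Ptpro a receptor tyrosine phosphatase of the foot process surface. Podxl encodes podocalyxin, the charged sialomucin that keeps foot processes apart, and Synpo encodes synaptopodin, which organises their actin. Wt1 is the transcription factor of podocyte identity, Cdkn1c a cyclin-dependent kinase inhibitor of the quiescent podocyte, and Plce1 a phospholipase C whose loss causes childhood nephrotic syndrome in humans. Of the 8 genes, 7 were among the 22180 genes with a probe set of a single gene symbol, and Magi2 was not analysed here. Each of the 7 had 1 probe set, and all 7 passed the filter on dim genes, so none of the measured members was lost to it.

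RNA from kidney cortex of 20-week-old male C57BLKS/J mice was measured on 9 Affymetrix arrays in 3 groups of 3, each array labelled a biological replicate. In the db/db+TSF group, db/db mice had received TSF (Tang-shen Formula), a herbal mixture of Chinese medicine, for 12 weeks at 2.4 g/kg/day by gavage. The db/db group received saline instead; these mice are homozygous for a leptin receptor mutation that leads to obesity and diabetes. Each of these 2 groups held 9 mice. The db/m mice are lean heterozygotes of the same strain, and whether they were given saline is not stated. The leptin receptor is disrupted in every tissue of db/db mice, and such mice are known to differ from db/m mice in body weight and hormones as well as in blood glucose. How the 3 mice per group were picked, and whether RNA was pooled, is not given in the sources used here.

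Values are log2(intensity + 1), on which 1 unit is a doubling, and array medians lay between 3.50 and 3.61. The first principal component over 17740 genes (32.3% of the variance) had the db/m arrays at one end. Array db/db replicate 3 stood out by its neutrophil marker S100a8, at 6.10 against 2.16 to 2.54 in the other 8 arrays. Array db/m replicate 3 was the highest db/m array in 5 of the 7 podocyte genes. Cortex is mostly proximal tubule, and in such bulk tissue fewer podocytes and less RNA per podocyte cannot be told apart.

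Promoter windows were at hand for 3 of the measured genes. They are shown for Nphs1 and Ptpro, which both lay higher in db/db than in db/m, and for Plce1, in which db/db+TSF lay near db/m. Each is 300 bases, from 250 before to 50 after an annotated transcript start, from RefSeq (GRCm38.p6, plus strand), at chr7:30459808-30460107 for Nphs1, chr6:137252049-137252348 for Ptpro and chr19:38523947-38524246 for Plce1. Capitals mark E-boxes, the CANNTG motif bound by basic helix-loop-helix factors.
Nphs1: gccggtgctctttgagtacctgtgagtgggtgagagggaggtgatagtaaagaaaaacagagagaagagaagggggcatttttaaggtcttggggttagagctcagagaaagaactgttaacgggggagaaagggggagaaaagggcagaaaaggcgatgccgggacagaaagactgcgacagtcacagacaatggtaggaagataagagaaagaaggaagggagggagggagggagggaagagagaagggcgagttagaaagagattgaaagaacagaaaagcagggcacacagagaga
Ptpro: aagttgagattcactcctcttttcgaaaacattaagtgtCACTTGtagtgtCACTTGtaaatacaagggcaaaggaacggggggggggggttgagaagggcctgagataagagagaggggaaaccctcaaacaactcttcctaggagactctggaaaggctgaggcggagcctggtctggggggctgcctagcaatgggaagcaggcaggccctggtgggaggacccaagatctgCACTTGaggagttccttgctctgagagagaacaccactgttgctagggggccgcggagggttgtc
Plce1: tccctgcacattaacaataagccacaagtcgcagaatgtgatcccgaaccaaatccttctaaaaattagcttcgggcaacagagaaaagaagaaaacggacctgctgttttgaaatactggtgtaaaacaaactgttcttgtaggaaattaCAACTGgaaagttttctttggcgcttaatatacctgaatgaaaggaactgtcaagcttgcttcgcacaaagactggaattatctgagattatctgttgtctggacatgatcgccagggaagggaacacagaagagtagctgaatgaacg
The motifs named here were searched on both strands. The E-box, which reads the same on either strand, occurred 3 times in the Ptpro window, once in the Plce1 window and 0 times in that of Nphs1, and 72.3% of all 32851 such windows hold at least 1. The WT1-type core GCGTGGG (in 5.04% of all windows), its G-rich form GCGGGGG (10.8%) and the homeodomain core TAATTA (5.29%) matched in 0 of the 3 windows. No 2 matches overlapped. The letters describe these windows only, and the Nphs1 and Plce1 windows do not lie at the outermost start of their genes.

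Diabetic cortex was first set against lean cortex, db/db against db/m. The podocyte genes lay slightly higher in db/db, by 0.04 to 0.29 log2 units, with 7 of 7 above 0 as deposited (52.2% of all genes were) and Wt1 at -0.01 after quantile normalization. At a limma adjusted p of 0.05, 0 of 7 passed, a threshold that 1.05% of all genes passed (0.592% higher and 0.462% lower). That share came from 187 genes and was carried by fewer, 72 to 122, without any one of 7 arrays: the 3 db/m arrays, the 3 db/db arrays and db/db+TSF replicate 3. At an unadjusted p under 0.05 the count was 3 of 7, and 13.9% of all genes. The median log2 fold change of the 7 was 0.18, against 0.01 over all genes tested. In 4 of them (Nphs1, Ptpro, Podxl and Plce1) every db/db array lay above every db/m array, which held for 10.4% of all genes; groups did not overlap in 18.6% of all genes, with 8.28% lower, and in 0 of the 7 was db/db the lower group.

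The next comparison, db/db+TSF against db/db, sets treated against saline-treated diabetic cortex. No difference was detected: log2 fold changes lay between -0.15 (Plce1) and 0.15 (Podxl), 4 of 7 lay above 0 (43.9% of all genes) and 0 of 7 passed, as did 0 of all 17740 genes (0% called by limma, and 0 also without moderation). At an unadjusted p under 0.05 the counts were 0 of 7 and 11.7% of all genes. The median of the 7 was 0.02, against -0.02 over all genes, and it was -0.04 after median scaling of the arrays. Podxl was the member whose groups did not overlap, higher in db/db+TSF, as in 7.81% of all genes (20.1% in either direction, 12.3% lower).

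Set against db/m, db/db+TSF is compared with the same arrays as db/db was, so the 2 results share their control samples. The median was 0.27, against -0.0002 over all genes, and 7 of 7 lay above 0 as deposited (50% of all genes); with median scaling Wt1 (-0.01) and Plce1 (-0.02) lay below it. At the threshold 0 of 7 passed, where 3.13% of all genes did (1.22% higher and 1.92% lower), a share that came from 556 genes and from 213 to 370 without db/m replicate 1, db/m replicate 2, db/db+TSF replicate 2 or db/db+TSF replicate 3. Podxl and Nphs1 came nearest, at adjusted p-values of 0.0572 and 0.059, and passed under 5 and 4 of 14 alternative settings. Both counts include the looser threshold of 0.1, which these same p-values meet without any change to the fit. The groups did not overlap in 3 members (Nphs1, Ptpro and Podxl), all higher, as in 9.76% of all genes (22.1% in either direction, 12.4% lower). At an unadjusted p under 0.05 the count was 4 of 7, and 17.2% of all genes.

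**Figure D1:**
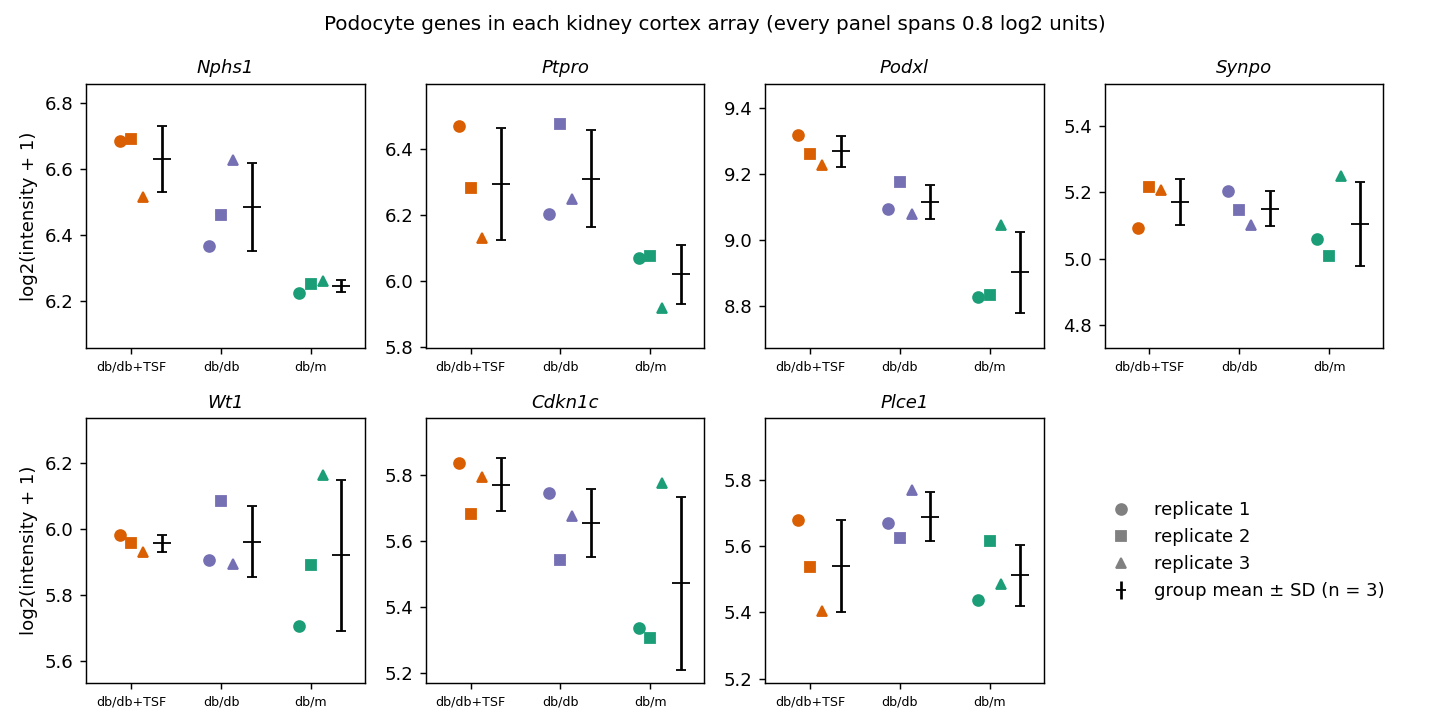
Level of 7 podocyte genes, log2(intensity + 1), in each array of db/db+TSF, db/db and db/m mice. Points are arrays (shape gives the replicate number) and black bars the group mean ± SD (n = 3); in Nphs1 the 3 db/m arrays sit between 6.23 and 6.26, below the other 6, while the Synpo and Wt1 groups overlap.

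The slit diaphragm gene Nphs1 measured 6.68, 6.69 and 6.51 in db/db+TSF, 6.37, 6.46 and 6.63 in db/db, and 6.23, 6.25 and 6.26 in db/m. The 3 db/m arrays lay close together below all 6 diabetic arrays, and db/db+TSF overlapped db/db. In db/db against db/m the log2 fold change was 0.24 (SE 0.10, limma adjusted p = 0.298), in db/db+TSF against db/db it was 0.14 (SE 0.10, adjusted p = 0.58), and in db/db+TSF against db/m it was 0.38 (SE 0.10), a 1.3-fold higher level. The order of group means was db/m, db/db, db/db+TSF from low to high, and no neighbouring pair passed the test. The difference of db/db+TSF from db/db was 0.08 without db/db replicate 1 and 0.09 with median scaling.

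Ptpro measured 6.47, 6.28 and 6.13 in db/db+TSF, 6.20, 6.48 and 6.25 in db/db, and 6.07, 6.08 and 5.92 in db/m. Again every diabetic array exceeded every db/m array, but the means of db/db+TSF and db/db, 6.29 ± 0.17 and 6.31 ± 0.15 (SD, n = 3), were nearly the same. The log2 fold change was 0.29 in db/db against db/m (SE 0.11, adjusted p = 0.286) and 0.27 in db/db+TSF against db/m (adjusted p = 0.247). Between db/db+TSF and db/db it was -0.02, with a 95% interval of -0.27 to 0.23.

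Of the surface and actin genes, Podxl measured 9.32, 9.26 and 9.23 in db/db+TSF, 9.09, 9.17 and 9.08 in db/db, and 8.83, 8.83 and 9.04 in db/m. The 3 groups formed 3 steps with no overlap. The log2 fold change was 0.37 in db/db+TSF against db/m (SE 0.09, 1.29-fold), 0.21 in db/db against db/m (SE 0.09, adjusted p = 0.329), and 0.15 in the treated against the untreated diabetic mice (SE 0.09, adjusted p = 0.529; 0.09 with median scaling). Without db/m replicate 3, the highest db/m array, the difference of db/db+TSF from db/m was 0.44 with an adjusted p of 0.0311. It did not pass without any of the other 8 arrays, where adjusted p reached 0.161.

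Synpo measured 5.09, 5.22 and 5.21 in db/db+TSF, 5.21, 5.15 and 5.10 in db/db, and 5.06, 5.01 and 5.25 in db/m. All 3 groups overlapped, and both the lowest and the highest array of the series were db/m arrays. The 95% interval of the log2 fold change was -0.16 to 0.25 for db/db against db/m (adjusted p = 0.863) and -0.19 to 0.23 for db/db+TSF against db/db (adjusted p = 0.952).

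The 2 nuclear genes differed from each other in pattern. Wt1 measured 5.98, 5.96 and 5.93 in db/db+TSF, 5.91, 6.08 and 5.89 in db/db, and 5.71, 5.89 and 6.16 in db/m. Its group means lay within 0.04 of each other, while the db/m arrays alone spanned the whole range of the series. The 95% interval was -0.22 to 0.30 for db/db against db/m (adjusted p = 0.903) and -0.26 to 0.25 for db/db+TSF against db/db (adjusted p = 0.992).

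Cdkn1c measured 5.84, 5.68 and 5.79 in db/db+TSF, 5.74, 5.54 and 5.68 in db/db, and 5.34, 5.31 and 5.77 in db/m. Of the db/m arrays, 2 lay below every diabetic array, and db/m replicate 3 lay among the diabetic ones. The log2 fold change was 0.30 in db/db+TSF against db/m (SE 0.13, adjusted p = 0.26), and 0.45 without db/m replicate 3, with an adjusted p of 0.0462. Without each array in turn that value lay between 0.21 and 0.45, with adjusted p-values of 0.0462 to 0.484, and db/m replicate 3 was the single array whose removal gave a pass. In db/db against db/m it was 0.18 (SE 0.13, adjusted p = 0.564), and 0.11, 0.10 and 0.33 without db/m replicate 1, 2 or 3.

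The signalling gene Plce1 measured 5.68, 5.54 and 5.40 in db/db+TSF, 5.67, 5.63 and 5.77 in db/db, and 5.44, 5.62 and 5.49 in db/m. Its mean was highest in db/db, at 5.54 ± 0.14 in db/db+TSF, 5.69 ± 0.07 in db/db and 5.51 ± 0.09 in db/m (SD, n = 3). The db/db arrays cleared the db/m arrays barely, at 5.63 against 5.62. The log2 fold change was 0.18 in db/db against db/m (SE 0.10, adjusted p = 0.466), -0.15 in db/db+TSF against db/db (SE 0.10, adjusted p = 0.583; -0.08 without db/db+TSF replicate 3 and with quantile normalization) and 0.03 in db/db+TSF against db/m (adjusted p = 0.923).

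**Figure D2:**
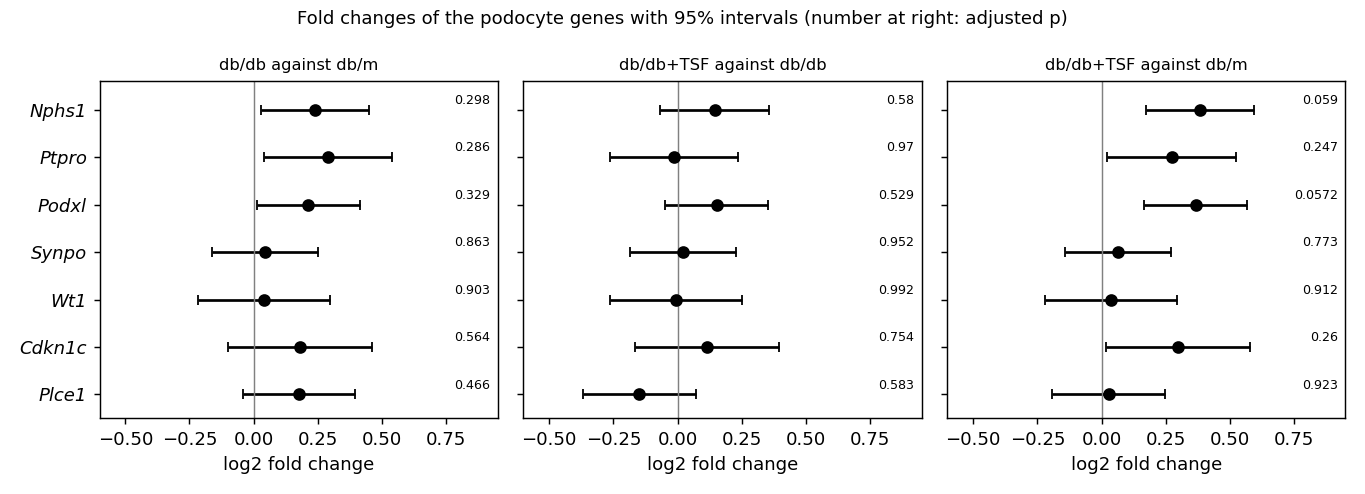
Log2 fold change of each podocyte gene (x axis) in 3 comparisons, with the 95% interval of the moderated fit as bars and limma's adjusted p at the right. In db/db+TSF against db/m the intervals of Nphs1 (0.17 to 0.60) and Podxl (0.17 to 0.57) lie farthest above 0; in db/db+TSF against db/db every interval spans 0.

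The podocyte genes varied together by array only in part. On array db/db+TSF replicate 1, 6 of 7 were above their own group's mean, and in db/m replicate 1 it was 1 of 7. The mean of the 7 genes, each centred on its own mean over the 9 arrays, was 0.14, 0.08 and 0.02 in db/db+TSF, 0.02, 0.06 and 0.05 in db/db, and -0.20, -0.15 and -0.02 in db/m. The db/m arrays thus lay below the other 6, with db/m replicate 3 nearest to them. Single members followed this mean loosely: the root mean square difference from it over the 9 arrays was 0.07 log2 units for Podxl and up to 0.13 for Ptpro, and for Wt1, Cdkn1c, Plce1 and Ptpro it was larger than the 0.10 of a gene with no variation.

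By the same measure the 5 non-members nearest to the mean profile were Poc1a (a centriole protein), Fau (a ribosomal protein precursor), Scnn1g (an epithelial sodium channel subunit), Ctsb (cathepsin B) and Slc25a3 (the mitochondrial phosphate carrier), at 0.03 to 0.04 log2 units, against a median of 0.18 over all genes. All 5 were nearer to it than Podxl, the nearest member, although each member is part of the mean. They were picked as the nearest of all genes tested. Among the 17740 genes Podxl ranked 138, and Ptpro, the farthest member, ranked 2619.

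A wider list of 43 podocyte genes with a probe set was set beside these, and all 43 passed the filter. Their mean intensities in db/m ran from 9.65 (Trpc6) to 1124 (Actn4), against 74.9 for Nphs1. Which cells of this bulk cortex gave each signal was not tested, so the list does not measure podocytes alone. None of the 43 passed the threshold in any comparison. In db/db against db/m 31 of the 43 lay above 0, where 52.2% of all genes did, and the median was 0.11. Of the 43, 7 did not overlap on the higher side and 1 on the lower, against 10.4% and 8.28% of all genes. In db/db+TSF against db/db the direction was mostly the other way, with 13 above 0 and 30 below it (43.9% of all genes lay above) and a median of -0.05, against 0.02 for the 7 genes above. In db/db+TSF against db/m the wider list was evenly split, with 21 above 0 and 22 below (50% of all genes above) and a median of -0.01, against 0.27 and 7 of 7 above 0 for those 7 genes. The difference between the lists was not tested.

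**Figure D3:**
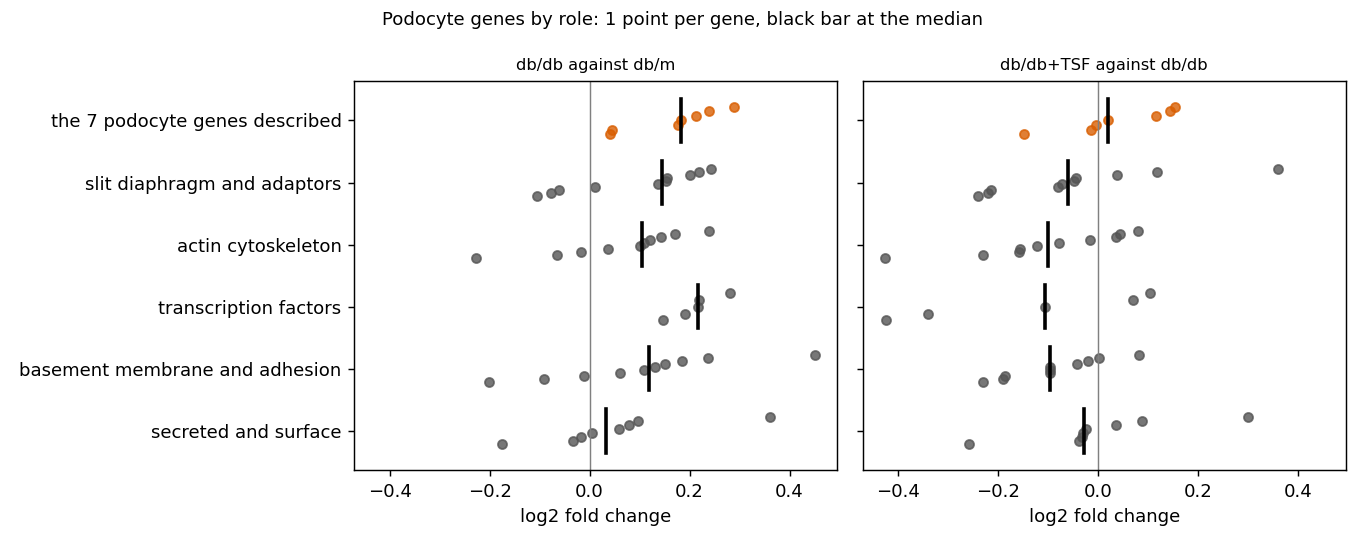
Log2 fold changes of the 7 podocyte genes and of 43 further podocyte genes by role, for db/db against db/m as well as db/db+TSF against db/db. Each point is a gene and the black bar the median of its list; 4 of the 5 further lists have medians of 0.10 to 0.22 in db/db against db/m, and all 5 have medians below 0 in db/db+TSF against db/db.

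The basement membrane and adhesion genes held the smallest p of the wider list in db/db against db/m. Lama5, a laminin chain of the glomerular basement membrane, measured 6.92, 6.84 and 6.72 in db/db+TSF, 6.86, 7.002 and 6.91 in db/db, and 6.38, 6.66 and 6.38 in db/m. All diabetic arrays exceeded the db/m arrays, with a log2 fold change of 0.45 in db/db against db/m (SE 0.10, adjusted p = 0.0691) and 0.36 in db/db+TSF against db/m (adjusted p = 0.0997). Col4a3, a collagen IV chain of the same membrane, pointed the other way: -0.20 in db/db against db/m (adjusted p = 0.474), -0.19 in db/db+TSF against db/db (adjusted p = 0.539; -0.05 without db/db+TSF replicate 2) and -0.39 in db/db+TSF against db/m (adjusted p = 0.104). Itga3, the laminin-binding integrin chain of podocytes, stood at 0.24 in db/db against db/m (adjusted p = 0.347), and the tetraspanin gene Cd151 at -0.23 in db/db+TSF against db/db (adjusted p = 0.337).

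Among secreted and surface genes, Pdpn, which encodes podoplanin, measured 6.81, 6.62 and 6.76 in db/db+TSF, 6.65, 6.86 and 6.79 in db/db, and 6.48, 6.38 and 6.36 in db/m. Its diabetic arrays were again all above the db/m arrays, by 0.36 in db/db (SE 0.09, adjusted p = 0.106) and 0.32 in db/db+TSF (adjusted p = 0.1). Pla2r1, an autoantigen of membranous nephropathy in humans, stood at -0.17 in db/db against db/m (adjusted p = 0.442). Between db/db+TSF and db/db the growth factor gene Vegfa stood at -0.26 (adjusted p = 0.35) and the receptor tyrosine kinase gene Tyro3 at 0.30 (adjusted p = 0.44; 0.19 without db/db replicate 1). With a pseudocount of 16 Tyro3 was 0.15 and Pla2r1 was -0.11.

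Of the slit diaphragm adaptors, Cd2ap, which links nephrin to actin, stood at 0.24 (adjusted p = 0.399; 0.14 without db/m replicate 3) and the junction protein gene Tjp1 at 0.20 (adjusted p = 0.386) in db/db against db/m. In db/db+TSF against db/db the nephrin-like genes went apart: Kirrel2 at 0.36 (adjusted p = 0.284) and Kirrel at -0.24 (adjusted p = 0.429). Kirrel was -0.14 without db/db+TSF replicate 3, and Kirrel2 was 0.16 with a pseudocount of 16. Kirrel2 was dim, at 3.70, 3.76 and 3.73 in db/db+TSF and 3.49, 3.17 and 3.45 in db/db. In the cytoskeleton list, Nes, which encodes the intermediate filament protein nestin (0.24, adjusted p = 0.386), and the formin gene Inf2 (0.17, adjusted p = 0.433; 0.11 with a pseudocount of 16) lay above 0 in db/db against db/m.

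The smallest p of the wider list in db/db+TSF against db/db belonged to Myo1e, a podocyte myosin, at 7.05, 7.002 and 6.79 in db/db+TSF and 7.32, 7.35 and 7.46 in db/db (log2 fold change -0.43, SE 0.10, adjusted p = 0.244). The groups did not overlap. The actin crosslinker Actn4 stood at -0.16 (adjusted p = 0.487). All 5 transcription factors lay above 0 in db/db against db/m, Foxc2 at 0.19 (adjusted p = 0.488) and Lmx1b at 0.22 (adjusted p = 0.533). Foxc2 was 0.10 and 0.29 without db/m replicate 1 or 3 and was 0.12 with db/db replicate 3 left out, and Lmx1b was 0.10 without db/db replicate 1 and 0.13 with a pseudocount of 16. Between db/db+TSF and db/db Foxc1 stood at -0.42 (adjusted p = 0.396) and Tcf21 at -0.34 (adjusted p = 0.487), and the groups overlapped in both genes. Foxc1 was -0.21 without db/db+TSF replicate 2, and Tcf21 was -0.20 without db/db replicate 1.

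Markers of the cells beside podocytes give the tissue context. Of 10 endothelial markers, 3 lay above 0 in db/db against db/m (median -0.01), where 52.2% of all genes did. The summed intensity of the endothelial markers was 2620 to 2709 in db/db+TSF, 2682 to 2779 in db/db and 2586 to 2682 in db/m. The summed intensity of the 7 podocyte genes was 949 to 1029 in db/db+TSF, 897 to 947 in db/db and 759 to 868 in db/m, and most of that sum is Podxl. Podxl alone had mean intensities of 616, 554 and 479 in these groups. Which cells of the cortex gave its signal was not tested. The mean centred level of the podocyte genes minus that of the endothelial markers was 0.11 ± 0.03 in db/db+TSF, 0.02 ± 0.04 in db/db and -0.13 ± 0.10 in db/m (SD, n = 3). In this difference the 3 db/db+TSF arrays lay above the other 6, and db/db overlapped db/m. Both parts of it moved between groups. The mean centred level of the endothelial markers was -0.03 in db/db+TSF, 0.03 in db/db and 0.005 in db/m. That of the podocyte genes was 0.08, 0.04 and -0.13, and its db/db+TSF and db/db arrays overlapped. Against mesangial and smooth muscle markers the difference was 0.05 ± 0.07, -0.02 ± 0.10 and -0.03 ± 0.05 in the same groups, which overlapped.

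Of 8 mesangial and smooth muscle markers 6 lay above 0 in db/db against db/m (52.2% of all genes did). The summed intensity of these markers was 1636 to 1763 in db/db+TSF, 1797 to 1826 in db/db and 1456 to 1560 in db/m. The level of the pericyte marker Rgs5 was higher in db/db than in db/m, by 0.64 (adjusted p = 0.0233). It stayed higher with any single array left out (0.54 to 0.71) and under the 14 other settings (0.59 to 0.67). The threshold was missed without db/m replicate 2, db/m replicate 3, db/db replicate 1 or db/db replicate 3 (highest adjusted p 0.0772). It was also missed under 4 of 14 other settings (highest 0.129), the dimmer Rgs5 probe set among them (0.67, adjusted p = 0.102). Of 7 loop and distal tubule markers 7 lay above 0, with summed intensities of 8935 to 10101 in db/db+TSF, 9044 to 10229 in db/db and 7556 to 7939 in db/m. Calb1, a calcium-binding protein of the distal tubule, rose (0.68, adjusted p = 0.0483), and missed the threshold without any array but db/m replicate 2 or db/db replicate 2 (highest adjusted p 0.155) and under 9 of 14 other settings (highest 0.206). Of 12 proximal tubule markers 6 lay above 0 (median -0.01), with sums of 27967 to 28486 in db/db+TSF, 26497 to 29171 in db/db and 28463 to 30798 in db/m.

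Of 8 collecting duct markers 7 lay above 0 in db/db against db/m (52.2% of all genes did). Their sums were 3141 to 3475 in db/db+TSF, 3189 to 3545 in db/db and 2701 to 3171 in db/m. Of 8 leukocyte markers 2 lay above 0, the neutrophil genes S100a8 and S100a9. Leukocyte sums were 143 to 168 in db/db+TSF, 182, 191 and 331 in db/db and 205 to 251 in db/m. The 331 is db/db replicate 3, the array with high S100a8, and the other 2 db/db arrays lay below all 3 db/m arrays. The T cell gene Cd3e fell by 0.78 in db/db (adjusted p = 0.0239), but not past the threshold without db/m replicate 1, db/db replicate 1 or db/db replicate 3 (highest adjusted p 0.0951) or without moderation (0.163), and with a pseudocount of 16 it fell by 0.49. No marker was at 0 in any array, but neither was any probe set, the lowest value being an intensity of 1.34. In db/db+TSF against db/m the markers past the threshold and higher were 1 of 8 mesangial and 2 of 7 loop and distal tubule markers. Those past it and lower were 2 of 12 proximal tubule and 3 of 8 leukocyte markers. Over all genes 3.13% passed, 1.22% higher and 1.92% lower. The median fold changes of the podocyte, mesangial, loop and distal tubule and collecting duct lists thus all lay above 0 in db/db against db/m, and their part in the podocyte values was not tested.

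**Figure D4:**
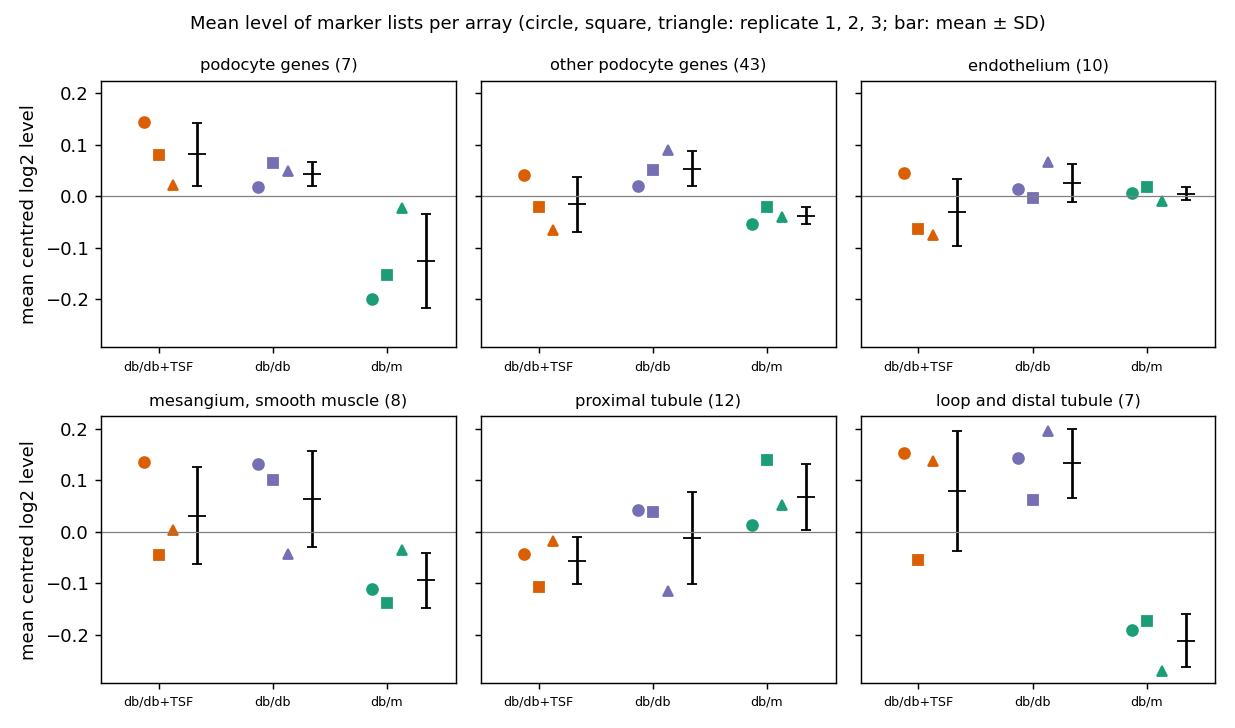
Mean level of 6 marker lists in each array, in log2 units after centring each gene on its mean over the 9 arrays; bars are the group mean ± SD (n = 3). The podocyte genes, the other podocyte genes and the loop and distal tubule markers have all 3 db/m arrays below the db/db arrays, whereas for the endothelial markers the 3 groups overlap.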

How the data were processed

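Kidney cortex RNA was measured on 9 Affymetrix arrays. The deposited values are linear intensity values for each probe set, made by the authors with Affymetrix software (Expression Console and Transcriptome Analysis Console, per the submitters' processing notes). How the arrays were normalized is not given in the sources used here. Of 41345 probe sets, 23521 had 1 gene symbol in the platform annotation and were used. The brightest probe set over the 9 arrays stood for its gene, values were taken as log2(value + 1), which understates fold changes of dim genes, and genes whose mean fell below 2.65, the 30th percentile over probe sets, were left out. Group means were fitted for 17740 genes with limma 3.58.1 in R 4.3.3, with Benjamini-Hochberg adjustment over all genes. Every adjusted p comes from that fit, and intervals are its unadjusted 95% intervals. The fit was also run on simulated data, with changes larger than those of the members, so that run does not cover effects of their size. The members and lists were chosen with earlier results of these data known. Named genes were all members, in each role list the 2 of smallest p in db/db against db/m, likewise db/db+TSF against db/db, markers of other cells past the threshold in db/db against db/m, and the 5 nearest profiles; further comparisons of Lama5, Col4a3 and Pdpn, and the alternatives run for genes that are not members, were chosen after seeing the data. No detection calls were used, so dim probe sets may hold background alone, and the number of arrays limits the precision. Alternatives covered the filter, pseudocount, scaling, probe set, variance model, array weights, arrays in the fit, replicate block, moderation, threshold and each array left out.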

Additional observations from a re-analysis of the deposited data

How the results depend on the processing

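Of 483 values of single podocyte genes under the alternatives, 453 kept their direction and side of the threshold, 11 came to pass and 19, all of genes near 0, changed sign. Of the 11, 2 are those of Podxl and Nphs1 at the looser threshold of 0.1. Under the filter, probe set, variance model, replicate block, moderation and threshold alternatives a member's fold change is unchanged, so its direction was fixed. The same holds with only the compared groups in the fit, or without an array of the group not compared. The members past the threshold in db/db+TSF against db/m numbered 2 instead of 0 with a 50th percentile filter, with a pseudocount of 16 or at a threshold of 0.1, and 1 with quantile normalization, with a trend and robust variance or with array weights; leaving out single arrays gave 0 to 2, the 2 being Podxl and Cdkn1c without db/m replicate 3. At 0.1 the 2 are Podxl and Nphs1, whose adjusted p-values of 0.0572 and 0.059 lie under that threshold as they stand. The 50th percentile filter changes which genes enter the fit and the adjustment, and not the fold changes. For the other settings the cause was not tested. In the other 2 comparisons the number of members past the threshold was 0 under every alternative run. The median in db/db+TSF against db/m was 0.19 to 0.29 with 1 array left out, lowest without db/db+TSF replicate 1. Over all genes, 26 (db/db against db/m) and 73 (db/db+TSF against db/m) passed without moderation and 442 and 1012 at a threshold of 0.1. With 1 array left out these counts were 72 to 194 and 213 to 563.

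Sign changes in db/db+TSF against db/db were Synpo at -0.0381 with median scaling, and Ptpro at 0.0457 and Wt1 at 0.0630 with quantile normalization; those in db/db+TSF against db/m were Plce1 at -0.0172 and Wt1 at -0.00837 with median scaling and Plce1 at -0.0115 with array weights; that in db/db against db/m was Wt1 at -0.00981 with quantile normalization. With 1 array left out the ranges were -0.0654 to 0.162 (Wt1) and -0.00358 to 0.117 (Synpo) in db/db against db/m, -0.00471 to 0.0603 (Synpo), -0.0384 to 0.0564 (Wt1) and -0.103 to 0.0681 (Ptpro) in db/db+TSF against db/db, and -0.0424 to 0.0961 (Plce1) and -0.0704 to 0.157 (Wt1) in db/db+TSF against db/m.

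Same-numbered arrays did not deviate together (correlations of -0.08 to 0.15), so the numbers are not taken as pairs. With the replicate block 137, 0 and 434 genes passed in db/db against db/m, db/db+TSF against db/db and db/db+TSF against db/m, and 0 podocyte genes in each.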

Other observations

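The cells of Bowman's capsule, the parietal epithelium, border the podocytes at the vascular pole. Of 5 parietal markers (Cldn1, Pax2, Pax8, Cdh6 and Ncam1, several of which tubules also express) 5 lay above 0 in db/db against db/m (median 0.22), where 52.2% of all genes did. In db/db+TSF against db/db 4 lay below 0 (median -0.21), and 43.9% of all genes lay above it. In these comparisons 0 of 5 passed the threshold, against 1.05% and 0% of all genes. The summed intensity of the 5 was 984 to 1079 in db/db+TSF, 1103 to 1275 in db/db and 884 to 1353 in db/m.

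The spread between lean mice was uneven over the podocyte genes. In db/m the SD was 0.02 log2 units for Nphs1, 0.23 for Wt1 and 0.26 for Cdkn1c, against 0.10, 0.03 and 0.08 for the same genes in db/db+TSF. Array db/m replicate 3 was the highest of the whole series in Wt1 and Synpo and the lowest of it in Ptpro.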
